A study of Mus musculus with 4 samples.

Results

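Hypoxia-inducible factor (HIF) is the transcription factor through which animal cells answer low oxygen. The 9 genes described here, out of 50600 in the files, encode its subunits and the enzymes that set its stability and activity: Hif1a, Epas1, Hif3a, Arnt, Egln1, Egln2, Egln3, Vhl and Hif1an. They were chosen by name, as rows whose identifier carries that symbol in the GENCODE mouse annotation, and no measured value entered that rule. Earlier results of these data were known when the choice was made. All 9 had a row, and all 9 passed the filter on low counts used for the test between libraries.

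The RNA came from T cells of the mouse strain C57BL/6NJ, given in the labels as primary cells of unknown age and with sex not collected. The labels give 1 group of 4 biological replicates, so nothing was compared between conditions. The alignments are named in the file headers as Th0, activated, sorted and 72 h, where Th0 is the usual name for helper T cells activated without cytokines that steer them to a subset. The linked protocol is for differentiating CD4 T cells, and all 4 libraries carry a single donor entry. Against that entry, Xist, the noncoding transcript of X inactivation, was at 278 and 316 TPM in replicates 1 and 2 but at 1.25 and 0.586 TPM in replicates 3 and 4, a gap that RNA of a single animal would not be expected to show. The p-values and SDs measure the spread between these libraries, and technical differences and differences between animals cannot be told apart in it. No oxygen level is given in the sources used here.

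The values are counts of read pairs per gene, made by the authors, and TPM (transcript abundance: counts divided by exonic length and scaled to a common total) was computed from them. Total counts lay between 34978213 and 118937382 per library, with replicates 1 and 3 the shallower pair. T cell markers were high, with Trac at 1892 ± 92.1 TPM and Trbc2 at 1567 ± 49.6 TPM (SD, n = 4), and all 9 genes of that list were at 1 TPM or above in all 4. In bulk RNA, fewer cells that use a gene and less of its RNA per cell cannot be told apart.

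In a cell with enough oxygen, the prolyl hydroxylases of the Egln family modify the HIF alpha subunit, the Vhl protein then binds it, and the ubiquitin ligase that Vhl belongs to marks it for destruction. Hif1an hydroxylates an asparagine of the alpha subunit and so blocks its contact with coactivators. When oxygen is short these reactions slow, alpha accumulates, pairs with Arnt and switches on genes of glucose use, blood supply and survival. In T cells, receptor signalling also raises Hif1a, which is known for supporting glycolysis and for its part in the balance between Th17 and regulatory T cells. All of this acts largely on protein, which was not measured here.

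Among the alpha subunits, Hif1a made up nearly all of the RNA. Hif1a, the widely expressed alpha subunit (ENSMUSG00000021109.13, chromosome 12, 73901375 to 73947530, plus strand of mm10), measured 142, 182, 166 and 156 TPM across replicates 1 to 4, from 9420, 39073, 12683 and 27136 counts. Its mean was 161 ± 16.99 TPM (SD, n = 4), above that of 94.8% of the 21764 protein-coding genes in the files. Replicate 1 was its lowest library and replicate 2 its highest, 1.29 times apart.

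Epas1, the alpha subunit also called HIF-2 alpha and best known from endothelium, lung and kidney (ENSMUSG00000024140.9, chromosome 17, 86753907 to 86833410, plus strand), had 2.37, 2.74, 3.14 and 2.51 TPM in replicates 1 to 4. These rest on 142, 530, 216 and 393 counts, so it was detected in every library, with a mean of 2.69 ± 0.337 TPM (SD, n = 4). Counting error alone gives a coefficient of variation of 8.39% in its shallowest library, against 12.5% observed over the 4. Hif1a was 60.3 ± 5.66 times Epas1 in TPM.

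Defining endothelial genes were at or near 0 in the same libraries. Cdh5, Emcn and Cldn5 had 0 counts throughout, and the deepest library then allows at most 0.0252 CPM (counts scaled to a common total, with no length). Of the 9 endothelial markers, 2 were at 1 TPM or above in all 4: Pecam1, also found on leukocytes, at 20.5 ± 1.55 TPM, and Egfl7, host gene of a microRNA, at 13.2 ± 1.24 TPM (SD, n = 4). The summed level of the list lay between 31.8 and 37.4 TPM. The macrophage list summed to 1.88 to 3.49 TPM, led by Adgre1 at 1.48 ± 0.353 TPM and Cd14 at 1.03 ± 0.494 TPM, with Lyz2, C1qa, C1qb and Fcgr1 at 0 counts. The B cell list, led by Cd79b at 2.06 ± 0.717 TPM and Igkc at 1.61 ± 0.499 TPM, summed to 5.11 to 8.87 TPM. The stromal and epithelial list summed to 8.94 to 10.2 TPM, led by Epcam at 3.26 ± 0.144 TPM and Pdgfrb at 3.22 ± 0.340 TPM. Of the neutrophil list, 4 of 5 genes had 0 counts and Mpo was at 0.0549 ± 0.0654 TPM. The part of these cell types in the low levels of Epas1 was not tested.

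Hif3a, whose locus encodes an alpha subunit with little or no activating function and, in mouse, a shorter inhibitory form (ENSMUSG00000004328.15, chromosome 7, 17031507 to 17062427, minus strand), had 4.99, 6.07, 4.91 and 5.33 TPM. Its mean of 5.33 ± 0.531 TPM (SD, n = 4) was 2.00 ± 0.297 times that of Epas1. The counts are per gene and pool its 4 annotated coding transcripts, so the inhibitory form cannot be read from them.

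Of the summed TPM of the 3 alpha subunits, Hif1a took 95.3% ± 0.153, Hif3a 3.15% ± 0.232 and Epas1 1.59% ± 0.156 (SD, n = 4). The share of Hif1a lay between 95.1% and 95.4% in the 4 libraries, although the sum itself ran from 149 to 191 TPM.

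**Figure D1:**
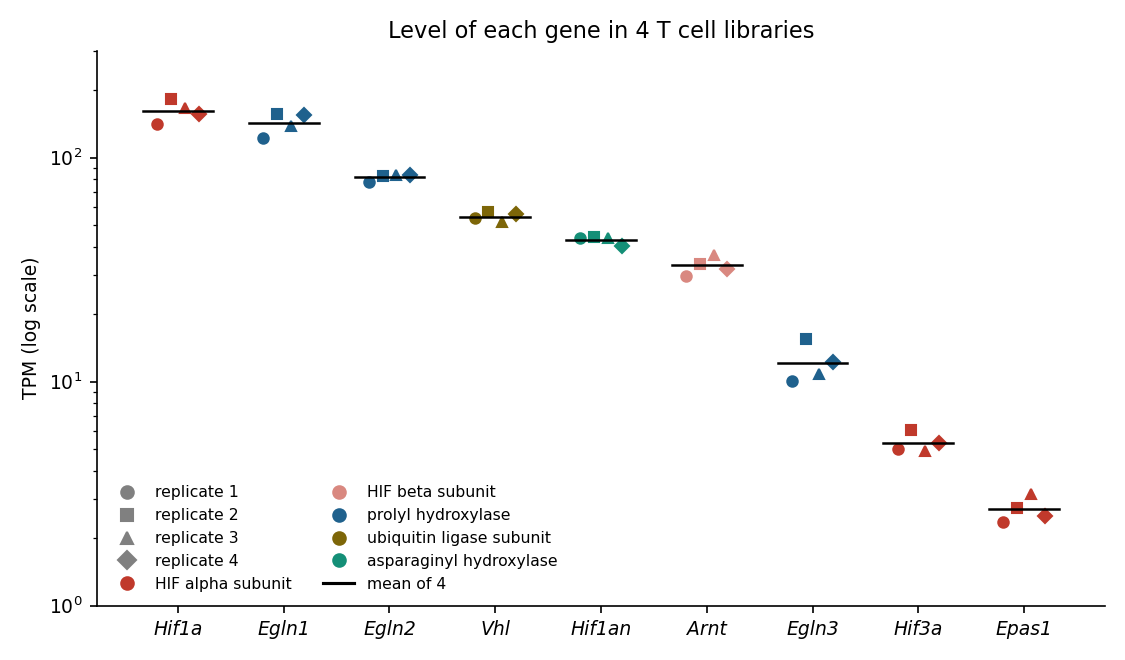
Level of each gene in TPM (vertical axis, log scale) in the 4 T cell libraries, with 1 point per replicate, the mean as a bar and the colour giving the role of the protein. Hif1a at 161 TPM and Epas1 at 2.69 TPM mark the ends of the order, and the points of Hif1a and Egln1 overlap.

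Arnt, a beta subunit that pairs with HIF alpha, also serves the aryl hydrocarbon receptor (ENSMUSG00000015522.18, chromosome 3, 95434388 to 95497240, plus strand). It had 29.7, 33.5, 36.9 and 31.9 TPM. Its mean was 33.04 ± 3.02 TPM (SD, n = 4), so Hif1a RNA stood at 4.89 ± 0.392 times Arnt RNA. That ratio depends on the length used. The exonic length of Arnt in the files, 8007 bases, counts every annotated exon, and 5 of its 11 transcripts in the annotation are retained introns. With the longest single transcript of each gene as its length, Arnt stood at 48.7 ± 4.44 TPM and the ratio was 3.30 ± 0.264.

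The prolyl hydroxylases were unequal in level. Egln1, also called PHD2 and in most cells the main oxygen sensor for HIF (ENSMUSG00000031987.6, chromosome 8, 124908587 to 124949324, minus strand), had 123, 156, 138 and 155 TPM in replicates 1 to 4, a mean of 143 ± 15.8 TPM (SD, n = 4). It was lower in replicates 1 and 3 than in replicates 2 and 4.

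Egln2, or PHD1, a mainly nuclear enzyme (ENSMUSG00000058709.11, chromosome 7, 27158658 to 27166802, minus strand), had 77.5, 83.0, 83.4 and 84.0 TPM, a mean of 82.0 ± 3.02 TPM (SD, n = 4). Replicates 2, 3 and 4 lay close together and replicate 1 below them. Egln3, or PHD3, known as a strongly hypoxia-inducible enzyme (ENSMUSG00000035105.5, chromosome 12, 54178981 to 54203860, minus strand), had 10.1, 15.5, 10.8 and 12.2 TPM, a mean of 12.1 ± 2.39 TPM (SD, n = 4). Its highest library, replicate 2, was 1.53 times its lowest.

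Of the summed Egln TPM, Egln1 took 60.2% ± 1.58, Egln2 34.7% ± 1.99 and Egln3 5.10% ± 0.664 (SD, n = 4). Egln1 exceeded Egln2 by 1.74 ± 0.144 times and Egln3 by 11.9 ± 1.27 times. The sum of the 3 was 210, 254, 232 and 251 TPM in replicates 1 to 4.

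**Figure D2:**
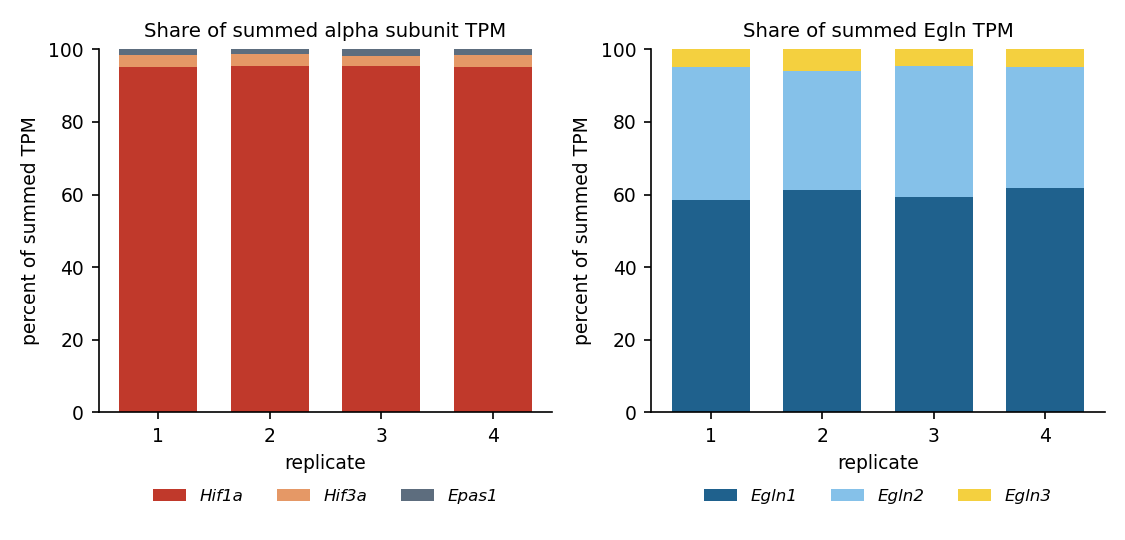
Share of each gene in the summed TPM of its family (vertical axis, percent) in replicates 1 to 4, for the alpha subunits and for the Egln prolyl hydroxylases. Hif1a takes 95.1% to 95.4% of the alpha sum in every library, and Egln1 takes 58.4% to 61.7% of the Egln sum.

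Vhl, the substrate-binding subunit of the ligase that takes up hydroxylated alpha (ENSMUSG00000033933.13, chromosome 6, 113623959 to 113631633, plus strand), had 53.5, 57.2, 51.8 and 55.8 TPM. Its mean was 54.6 ± 2.36 TPM (SD, n = 4), and Hif1a stood at 2.96 ± 0.279 times Vhl. Hif1an, the asparaginyl hydroxylase also called FIH (ENSMUSG00000036450.4, chromosome 19, 44562850 to 44576274, plus strand), had 43.6, 44.4, 43.8 and 40.4 TPM, a mean of 43.1 ± 1.77 TPM (SD, n = 4). The highest library was 1.103 times the lowest for Vhl and 1.097 times for Hif1an.

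HIF binds a short core, ACGTG or GCGTG, in the control regions of its targets, and Egln1 and Egln3 are known as such targets in a feedback loop. The promoters of Hif1a and of the 3 hydroxylases are shown because they differ in where that core lies. The sequences are from RefSeq, build GRCm38.p6, and run from 250 bases before to 50 bases after an annotated start, with the core on either strand in capitals (CACGT and CACGC are the same letters read on the opposite strand).
Hif1a, chr12:73907617-73907916, plus strand: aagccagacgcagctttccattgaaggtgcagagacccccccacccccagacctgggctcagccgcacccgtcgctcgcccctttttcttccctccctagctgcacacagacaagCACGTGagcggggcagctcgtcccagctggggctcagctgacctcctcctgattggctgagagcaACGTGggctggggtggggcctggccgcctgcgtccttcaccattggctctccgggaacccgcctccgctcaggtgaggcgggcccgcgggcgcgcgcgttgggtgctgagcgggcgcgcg
Egln1, chr8:124949205-124949504, minus strand: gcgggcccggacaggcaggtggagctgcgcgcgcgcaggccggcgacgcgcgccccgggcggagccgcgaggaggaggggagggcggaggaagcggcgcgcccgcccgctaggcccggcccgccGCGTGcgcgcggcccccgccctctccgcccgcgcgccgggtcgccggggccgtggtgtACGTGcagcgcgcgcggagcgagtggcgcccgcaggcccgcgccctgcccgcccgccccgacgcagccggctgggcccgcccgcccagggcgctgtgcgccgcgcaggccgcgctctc
Egln2, chr7:27166753-27167052, minus strand: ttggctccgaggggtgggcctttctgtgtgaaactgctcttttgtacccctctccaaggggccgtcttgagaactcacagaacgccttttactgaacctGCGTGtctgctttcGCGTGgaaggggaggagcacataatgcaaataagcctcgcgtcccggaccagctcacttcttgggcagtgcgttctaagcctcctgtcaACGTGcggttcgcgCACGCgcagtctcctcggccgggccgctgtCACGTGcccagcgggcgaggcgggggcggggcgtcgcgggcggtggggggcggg
Egln3, chr12:54203825-54204124, minus strand: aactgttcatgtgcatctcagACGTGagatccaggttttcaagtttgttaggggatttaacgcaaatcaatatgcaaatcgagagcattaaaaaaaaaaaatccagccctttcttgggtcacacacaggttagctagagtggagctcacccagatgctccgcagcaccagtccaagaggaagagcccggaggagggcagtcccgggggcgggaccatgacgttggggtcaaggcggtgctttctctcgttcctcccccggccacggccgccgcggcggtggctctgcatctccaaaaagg

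Counted from the annotated start as 0, the ACGTG core of Egln1 begins at position -68 and that of Egln3 at position -229. Egln1 has a GCGTG core besides, at -126, and Egln3 has none. Egln2 had 3 matches to each motif, of which the ACGTG matches at -4 and -3 overlap as a single CACGTG palindrome. Hif1a had 3 matches to ACGTG, those at -135 and -134 again being a palindrome, and none to GCGTG.

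Of the other members, Arnt had 1 GCGTG match and Hif3a had 2, while neither core was found in the windows of Vhl and Hif1an. For 8 of the 9 members the table held an entry, with a second for Egln2 that holds 1 GCGTG match, and Epas1 had none. Such letters are common. ACGTG occurs in 26.1% and GCGTG in 51.6% of 11075 windows of protein-coding genes with 1 TPM or above in all 4 libraries, and in 19.6% and 32.4% of all 32851 windows. A match is a description of the letters only.

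The annotated start of the Hif1a window lies 6492 bases inside the gene model of the files. That model begins at an upstream first exon, at 73901375, from which 1 of the 3 coding transcripts in the annotation starts, and the other 2 start at 73907904. In mouse the transcript from the upstream exon is known from activated T cells. Counts per gene join them, so the use of either start was not measured.

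None of the 9 gene models shares an exonic base with another gene on the same strand. Read pairs that touch exons of several genes could still go uncounted, and their number is not known here. On the opposite strand Gm15283, an antisense gene over Hif1a, had 2, 0, 0 and 3 counts, and Cyp2t4, which touches the end of Egln2, had 0 in all 4. Gm42672, a processed pseudogene inside an intron of Arnt on the same strand, had 13, 25, 9 and 33 counts.

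By mean TPM the order was Hif1a, Egln1, Egln2, Vhl, Hif1an, Arnt, Egln3, Hif3a and Epas1. All 36 pairs kept a single direction in 4 of 4 libraries on the log2(TPM + 0.1) scale, which understates differences of low genes. Flipping the signs of the 4 differences (exact permutation test, two-sided) gave p = 0.13 for each, the smallest that 4 libraries allow, and 0.13 after Benjamini-Hochberg adjustment over the 36 pairs. No pair could therefore pass 0.05.

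Neighbours differed by unequal steps. Hif1a minus Egln1 was 0.17 ± 0.12 log2 (SD, n = 4) and as little as 0.01 in replicate 4, and the TPM ranges of the pair overlapped, so their order is not separated from the spread. Every other neighbouring pair had ranges that did not overlap. The steps were 0.80 ± 0.12 for Egln1 minus Egln2, 0.59 ± 0.07 for Egln2 minus Vhl and 0.34 ± 0.09 for Vhl minus Hif1an. Below them they were 0.38 ± 0.13 for Hif1an minus Arnt, 1.45 ± 0.28 for Arnt minus Egln3, 1.16 ± 0.14 for Egln3 minus Hif3a and 0.96 ± 0.22 for Hif3a minus Epas1.

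The middle of the order rested on gene length. With the longest transcript as length, Hif1an minus Arnt was -0.41 and Arnt came between Egln2 and Vhl in mean TPM. Vhl over Arnt was then 1.04 and 1.01 in replicates 1 and 4, so that pair had no single direction. With CPM, which uses no length, Vhl minus Hif1an was -0.80 and Egln3 minus Hif3a was -0.16 on average. Egln3 stayed above Hif3a in replicate 2. In CPM, Hif1an and Arnt both came above Egln2 and Vhl. Hif1a and Egln1 stayed first and Epas1 last on each of these scales.

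Between libraries, 0 of the 9 genes were found to vary more than the trend for their level. The edgeR goodness-of-fit test asked whether a gene departs from the dispersion trend at its level. At a Benjamini-Hochberg adjusted p below 0.05 it called 66 of 14269 genes, or 0.463%. Of the 9 members 0 were called, with edgeR adjusted p between 0.977 and 1.00. At an unadjusted edgeR p under 0.05 there were 0 members, against 812 of the 14269 genes tested. The limma variance test also called 0 of the 9. With so few genes called in all, and so few members, a count of 0 among 9 does not set the members apart at either threshold.

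The SD of log2 CPM of the members ran from 0.02 for Egln2 to 0.25 for Egln3. Their median was 0.117, beside 0.119 for all genes tested and 0.104 for the protein-coding genes tested. These medians are not matched to the level of the members. Of the 9, 5 lay below the median of all genes. Scaled with TMM, the highest library of Egln2 was 1.03 times its lowest, that of Egln1 1.205 times, that of Hif1a 1.21 times and that of Egln3 1.44 times. Egln1 had the lowest unadjusted p of the 9, 0.0719 (edgeR, n = 4 libraries, adjusted p = 0.977).

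**Figure D3:**
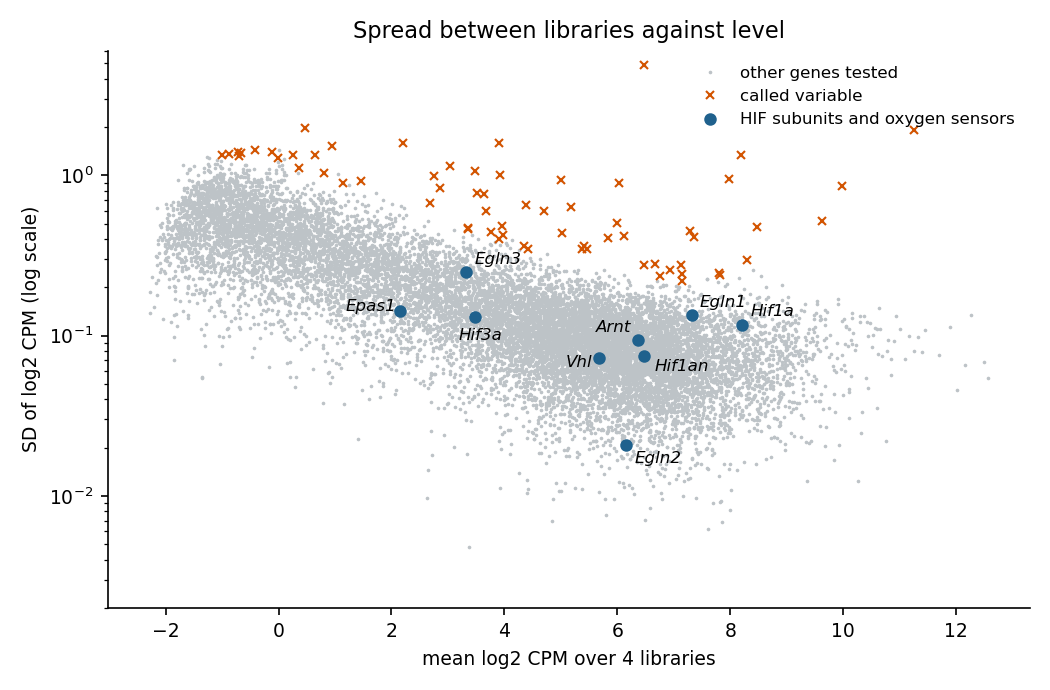
SD of log2 CPM over the 4 libraries (vertical axis, log scale) against mean log2 CPM for the 14269 genes tested, with the 66 called genes as crosses and the 9 members as labelled circles. Egln3 has the highest SD of the 9 at 0.25, and Egln2 the lowest at 0.02, and none of them is among the called genes.

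The small deviations of several members ran along with depth. On the log2 CPM scale, 4 of the 9 members, Egln1, Egln2, Egln3 and Hif3a, were higher in both deep libraries, replicates 2 and 4, than in both shallow ones, replicates 1 and 3, and 0 ran the other way. Over all genes tested the same held for 16.2%, and for 15.5% in the other direction. Relative to its own mean, Egln1 stood at 0.11 and 0.12 in the deep libraries, against -0.15 and -0.08 in the shallow ones. Egln3 stood at 0.35 and 0.02 in the deep libraries, against -0.18 in both shallow ones. For Egln2 the whole range was 0.05, and in TPM its libraries did not split this way. For Hif3a the split was narrow, with replicate 4 at 0.0002 and replicate 1 at -0.025. Malat1, a nuclear RNA, also moved with depth, at 63.2 and 59.3 TPM in the deep libraries against 348 and 246 TPM in the shallow ones. The part of depth or library quality in these values was not tested.

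**Figure D4:**
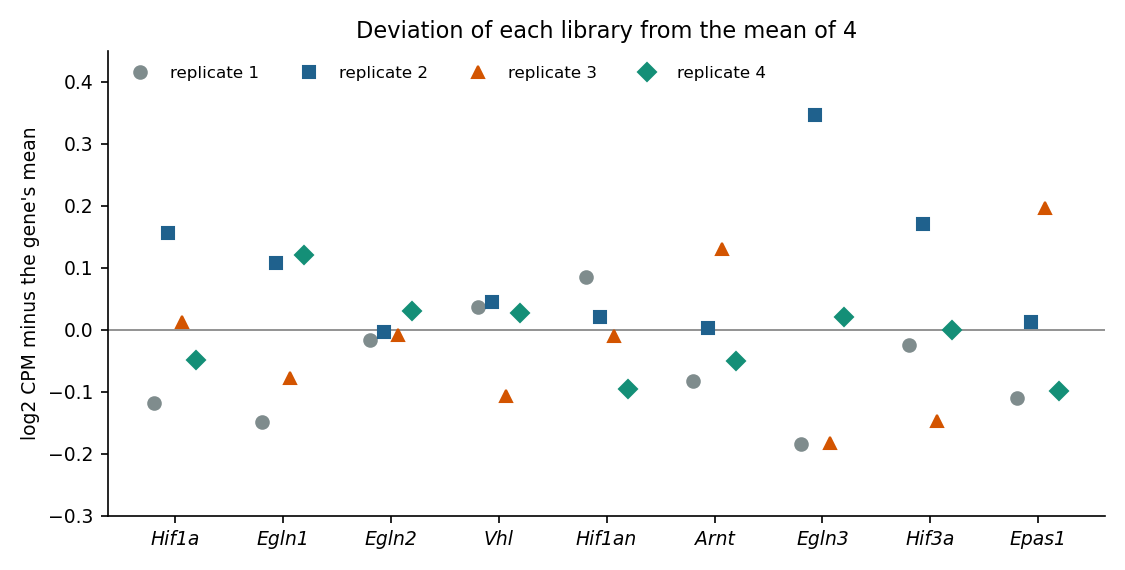
Log2 CPM of each gene minus its mean over the 4 libraries (vertical axis), with 1 symbol per replicate and genes ordered by mean TPM. Replicate 2 is the highest library of Egln3, at 0.35, while all values of Egln2 lie between -0.02 and 0.03.

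Hif1a itself did not split by depth, with deviations of -0.12, 0.16, 0.01 and -0.05 log2 in replicates 1 to 4. Arnt and Epas1 were highest in replicate 3, at 0.13 and 0.20, and Vhl was lowest there, at -0.11. Hif1an was highest in replicate 1, at 0.08.

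The genes nearest to Hif1a in this pattern, by root mean square difference of centred log2 CPM over the 4 libraries, were Eif5a2 at 0.00777, Pla2g15 at 0.0133 and Ccdc22 at 0.0160. Within 0.05 of Hif1a lay 157 of 12158 protein-coding genes. For the others the nearest was mt-Nd4 (Epas1), Vps8 (Hif3a), Zfp788 (Arnt), Slc25a1 (Egln1), Med22 (Egln2), Myrf (Egln3), Slc25a5 (Vhl) and Vezf1 (Hif1an). Egln3 had 3 genes within 0.05 and Egln2 had 2094, which follows the size of their own deviations. With 4 libraries such likeness is a description.

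The partners of Vhl were all expressed. All 7 genes of the ligase list were at 1 TPM or above in all 4, and 0 of the 7 were called variable, against 0.463% of all genes. The adaptor Elob stood at 981 ± 43.1 TPM (SD, n = 4), Nedd8, the small modifier that activates cullins, at 823 ± 36.9 TPM, and Ube2m, the enzyme that conjugates it, at 286 ± 5.18 TPM. The RING subunit Rbx1 was at 102 ± 4.73 TPM, the adaptor Eloc at 74.1 ± 5.24 TPM and the scaffold Cul2, lowest of the list, at 65.5 ± 2.35 TPM. Vhl, at 54.6 ± 2.36 TPM, was thus below each of its 7 listed partners and modifiers in mean TPM.

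Of 18 other genes that act on HIF, 17 were at 1 TPM or above in all 4. Of the 17 tested 0 were called variable, against 0.463% of all genes tested. Hsp90ab1 and Hsp90aa1, chaperones that hold alpha subunits, were at 4440 ± 177 TPM and 495 ± 21.8 TPM (SD, n = 4), and Rack1, which competes with Hsp90 for Hif1a, was at 1441 ± 71.4 TPM. Fkbp8, a binding partner of Egln1, followed at 247 ± 19.0 TPM. The lowest of the list were the deubiquitinase Usp20 at 12.1 ± 1.45 TPM and Arnt2, the alternative beta subunit of neurons and kidney, at 0.0314 ± 0.0319 TPM. Of these beta subunit genes, Arnt reached a TPM of 1 and Arnt2 did not.

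The genes listed here with the bHLH-PAS family were low, though the list is a selection and not the whole family. Of the 13 listed, 7 were at 1 TPM or above in all 4. The median of the 13 was 1.59 TPM, beside 43.1 TPM for the members. Npas4, an activity-induced factor of neurons, was at 17.03 ± 3.51 TPM (SD, n = 4), the clock factor Arntl at 11.4 ± 1.14 TPM, the aryl hydrocarbon receptor Ahr, which also dimerizes with Arnt, at 9.70 ± 0.551 TPM and Tiparp, placed in this list as a target and repressor of Ahr, at 5.13 ± 0.530 TPM. Npas1 and Sim1 went without a count, so at most 0.0252 CPM is allowed for the deepest library. Of the 8 that could be tested 0 were called variable, against 0.463% of all genes tested.

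Other oxygen-dependent dioxygenases were all present, 14 of 14 at 1 TPM or above in all 4. They were led by the histone demethylase Kdm5c at 145 ± 27.7 TPM, the collagen prolyl hydroxylase P4ha1 at 82.0 ± 3.37 TPM, the lysyl hydroxylase Jmjd6 at 74.5 ± 3.65 TPM and the demethylase Kdm4b at 49.3 ± 5.66 TPM (SD, n = 4). P4htm, a membrane-bound relative of the Egln enzymes, was at 13.4 ± 1.02 TPM and P4ha2 at 11.7 ± 0.941 TPM. In this list 2 of 14 genes were called variable, against 0.463% of all genes tested. They were Kdm5c at 162, 174, 125 and 117 TPM over replicates 1 to 4 (adjusted p in edgeR = 0.0101) and Kdm6a with 32.3, 34.1, 20.4 and 17.2 TPM (adjusted p in edgeR = 4.91e-15). Both lie on the X chromosome and were higher in replicates 1 and 2, the libraries with high Xist, than in replicates 3 and 4. None of the 9 members lies on a sex chromosome. In log2 CPM, Vhl and Hif1an had replicates 1 and 2 above replicates 3 and 4, by small steps. Deviations of Vhl were 0.04, 0.04, -0.11 and 0.03, and those of Hif1an 0.08, 0.02, -0.01 and -0.09. The share of all genes with that split is not given here, so it does not set Vhl and Hif1an apart. In TPM the same pairs of libraries overlapped for both genes, and neither was called variable.

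The genes of glucose use listed as HIF targets were expressed at high levels. All 21 genes of that list were at 1 TPM or above in all 4, with a median of 173 TPM. Over all protein-coding genes at 1 TPM or above in all 4, the median was 31.9 TPM. HIF activity was not measured, so its part in the levels of this list and the next was not tested. Of the 21, 0 were called variable, against 0.463% of all genes tested. Ldha, lactate dehydrogenase, led at 3706 ± 283 TPM (SD, n = 4), with Gapdh at 1896 ± 138 TPM, Pkm at 1806 ± 172 TPM and Tpi1 at 1777 ± 159 TPM. Eno2 and Pfkfb4, isoforms known for their response to hypoxia, were lowest, at 12.9 ± 2.34 and 7.84 ± 0.891 TPM. Of these genes 17 of 21 were higher in both deep libraries than in both shallow ones and 0 ran the other way, beside the 16.2% and 15.5% of all genes tested. The median deviation of the list was 0.08 log2 in each deep library, against -0.12 and -0.06 in the shallow ones, replicates 1 and 3.

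The wider target list has 31 genes besides Egln1 and Egln3, of which 28 were at 1 TPM or above in all 4. Of the 29 tested 0 were called variable, against 0.463% of all genes tested. Mif, a cytokine-like protein, was at 1757 ± 181 TPM (SD, n = 4), the transcription factor Bhlhe40 at 753 ± 41.4 TPM, the transferrin receptor Tfrc at 496 ± 23.5 TPM and Ddit4, an inhibitor of mTOR signalling, at 475 ± 37.3 TPM. The clock repressor Bhlhe41 was at 0.137 ± 0.0814 TPM, and Epo, the kidney hormone of red cell formation, had 0 counts in all libraries. With depth, 10 of the 29 tested were higher in both deep libraries and 2 were lower, beside 16.2% and 15.5% of all genes tested.

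Of the 10 genes known mainly as targets of Epas1, 3 were at 1 TPM or above in all 4. Among them were Cited2, a competitor of HIF for its coactivators, at 79.9 ± 1.70 TPM and the iron transporter Slc11a2 at 22.6 ± 1.82 TPM (SD, n = 4), and each is regulated by other factors too. The cyclin Ccnd1 was at 0.393 ± 0.209 TPM, and Epo and Angpt2 had 0 counts. The median of the list was 0.199 TPM, beside 1.43 TPM over all protein-coding genes.

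**Figure D5:**
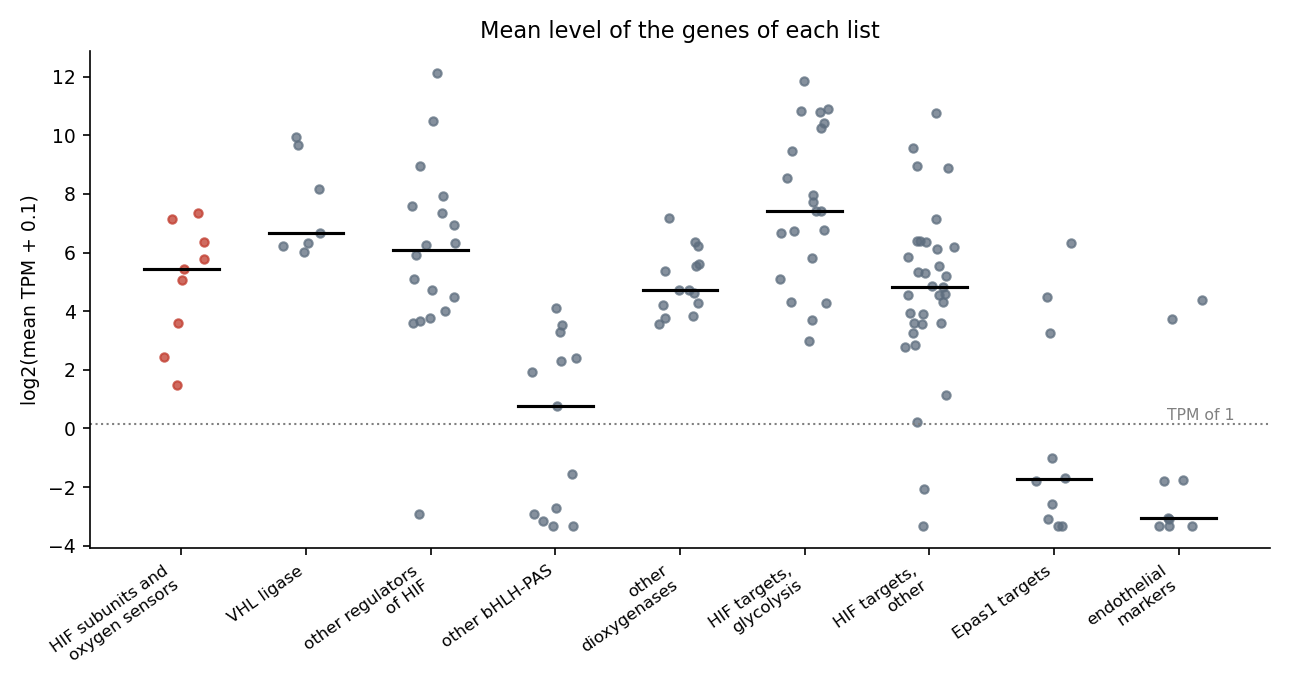
Mean level of each gene on the log2(mean TPM + 0.1) scale (vertical axis), 1 point per gene, for the 9 members in red and for 8 lists of related genes, with the median of each list as a bar. The glycolysis targets have the highest median and the endothelial markers the lowest of the lists drawn, and all 9 members lie above a TPM of 1.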

How the data were processed

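RNA of 4 T cell libraries was sequenced. The deposited values are counts of read pairs per gene, made by the authors with featureCounts 1.4.6-p4 on STAR alignments, reverse-stranded, over exons of GENCODE M13, per the file headers, and the build is mm10, per the labels. Pairs with several alignments or several genes were left at the tool's default. The labels call the molecule total RNA while the linked library protocol is named for poly(A)+ RNA, so which was sequenced is not settled by the sources used here. No pair of libraries looked like duplicates, with a chi-square per degree of freedom of 26.7 to 76.1 between them.

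Symbols were matched by identifier to GENCODE M21 for 50376 of 50600 genes (99.6%). TPM was computed from counts and the exonic length in the files. Differences between genes were taken on log2(TPM + 0.1) within a library. Variation between libraries was tested with edgeR 4.0.16 (R 4.3.3; filterByExpr, TMM, intercept only, goodness of fit under the trended dispersion) over 14269 genes, with a common biological coefficient of variation of 11.5%, and with the residual variance of limma 3.58.1 as an alternative. Totals of 34978213 to 118937382 counts put the floor of 3 counts at 0.0252 to 0.0858 CPM. Floors cover counting error only.

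The members and lists were chosen with earlier results of these data known. The named genes are the 9 members, the 4 highest and 2 lowest of each pathway list, every called gene of those lists, the 2 highest of each marker list, and the genes nearest to a member between libraries. Defining markers at 0 counts are named besides. The result of 1 gene that this rule names is not reported here.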

Additional observations from a re-analysis of the deposited data

Results flagged for a closer look

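Of 105 values examined in the group of 4, 8 had a library set apart from the others by Dixon's criterion, where chance alone gives about 1 in 20, or 5.25. Egln2 was at 77.5 TPM in replicate 1, against 83.0 to 84.0 TPM in the others. In log2 CPM, scaled with TMM, that library was not set apart. The deviations of Egln2 were then -0.017, -0.004, -0.009 and 0.030 in replicates 1 to 4. Hif3a minus Epas1 was 0.63 log2 in replicate 3, against 1.04 to 1.12 in the others. The share of Egln3 in the summed Egln TPM was 6.09% in replicate 2, against 4.66% to 4.85% in the others. Mif was at 2028 TPM in replicate 4, against 1652 to 1675 TPM. Ccnd1 was at 0.704 TPM in replicate 3, against 0.252 to 0.315 TPM. Trac was at 1755 TPM in replicate 1, against 1926 to 1949 TPM, and its whole range in log2 CPM was 0.08. Egfl7 was at 11.4 TPM in replicate 3, against 13.6 to 14.0 TPM. Epcam was at 3.47 TPM in replicate 2, against 3.17 to 3.21 TPM.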

How the results depend on the processing

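When any single library was left out, 0 members were called variable. All 9 members at a TPM of 1 or more and all 36 pairs in a single direction held in every library. Leaving a library out could therefore not change those counts. Of the 36 pairs, 34 had a single direction in 4 of 4 libraries in CPM and 35 with the longest transcript as length. The lowest edgeR adjusted p of a member was 0.529 under a common dispersion, 0.942 without replicate 4 and 0.977 as reported. Gene length moved the shares. In CPM the shares were 66.1% for Egln1, 29.7% for Egln2, 4.15% for Egln3 and 95% for Hif1a. With the longest transcript as length, an alternative chosen after seeing the data, they were 54.0% for Egln1, 41.4% for Egln2 and 96.1% for Hif1a. Leaving out a library gave 59.7% to 60.8% for Egln1, 34.0% to 35.4% for Egln2, 4.77% to 5.24% for Egln3 and 95.2% to 95.3% for Hif1a. Among neighbours, the mean difference turned in direction for Vhl minus Hif1an (-0.80) and Egln3 minus Hif3a (-0.16) in CPM. That of Hif1an minus Arnt (-0.41) turned with the longest transcript, where the lengths differ by construction. Egln3 minus Hif3a did not turn in replicate 2, where Egln3 had 1501 counts and Hif3a 1485. Of pairs that are not neighbours, Egln2 was below Hif1an and Arnt in CPM. Vhl was below Arnt in CPM, with Vhl over Arnt at 0.622 ± 0.0663 (SD, n = 4), against 1.66 as reported. With the longest transcript the direction of that pair was mixed. Vhl over Arnt was then 1.04, 0.988, 0.814 and 1.01 in replicates 1 to 4, a mean of 0.964 ± 0.103 (SD, n = 4).

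The count of genes called variable, 66 as reported, was 955 under a common dispersion, 27 with limma, 20 with replicates 2 and 4 alone (chosen after seeing the data) and 41 to 68 when a library was left out, 41 being without replicate 1. In the pathway lists 2 genes were called, 3 under a common dispersion, 1 with limma, and 1 to 2 when a library was left out, 1 being without replicate 2 or without replicate 4. The cause was not tested. Depth limits Epas1 most, with 142 counts in replicate 1. No paired analysis was possible because the labels give a single group.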
